A study of Homo sapiens with 6 samples.

Results

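Expression of 10 genes, most of them of the stromal extracellular matrix, was examined in MCF10A cells after knockdown of DAB2IP. The small leucine-rich proteoglycan genes were DCN, LUM and BGN, with their relative ECM2, and the large proteoglycan gene was VCAN. The others were the matricellular genes POSTN, SPARC and TNC, the elastic fiber gene FBLN5, and GAS1, which encodes a surface protein. The genes were found by their symbols in the deposited count table, 10 of the 58735 genes it holds, and they were chosen from their values in the comparison of siDAB2IP with siControl, so that their differences between these groups are given as a description with no test. MCF10A is an established line of nonmalignant human breast epithelial cells, grown here in DMEM/F12 with horse serum, insulin, EGF, cholera toxin and hydrocortisone. The siDAB2IP group received siRNA against DAB2IP, a RasGAP tumor suppressor, and the siControl group a nontargeting pool, and total RNA was taken from both 48 hours after transfection, in 3 libraries for each group. The labels name no second siRNA, no untransfected cells, and nothing that tells whether the 3 libraries of a group came from separate cultures, so the spread between them may be technical.

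Small leucine-rich proteoglycans are short proteins with glycosaminoglycan chains that bind collagen fibrils and growth factors, and versican is a large chondroitin sulfate proteoglycan that binds hyaluronan. Matricellular proteins such as periostin, SPARC and tenascin-C are secreted into the matrix and change how cells attach to it rather than building its fibers. In breast tissue most of these genes are best known from fibroblasts and other stromal cells, and epithelial cells in culture can also express several of them.

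The libraries held between 16353783 and 21916062 counts. Expression is given in CPM, counts relative to the library total scaled with the TMM factors of edgeR. A count of 0 allows up to 3 counts, or 0.139 to 0.187 CPM depending on the library, which covers counting error only. DAB2IP itself had 91.6 ± 13.1 CPM in siControl and 25.1 ± 2.57 CPM in siDAB2IP (SD, n = 3 each), a log2 fold change of -1.86 (edgeR quasi-likelihood test, adjusted p = 9.71e-05). The cells carried epithelial markers, a list of 12 genes that holds the basal keratins KRT5, KRT14 and KRT17 and also KRT8, KRT18, EPCAM and CDH1, which are not particular to basal cells. The 12 genes summed to between 10532 and 12596 CPM in siControl and between 6819 and 8610 CPM in siDAB2IP, and 3 of the 12 fell (KRT5, KRT14 and KRT17), to which a fit blocked on the replicate number added TP63 (adjusted p = 0.00456, edgeR). The 14 markers of fibroblasts and pericytes summed to between 36.5 and 53.2 CPM in siControl and between 57.7 and 85.1 CPM in siDAB2IP. FAP and COL1A1 made up most of this sum. COL1A1 rose, and in the blocked fit FAP rose as well (adjusted p = 0.00339, edgeR, and 0.0836 without the block). ACTA2, CSPG4, RGS5 and PDGFRB had group means between 0.620 and 8.59 CPM, COL1A2, COL3A1, PDGFRA, THY1 and PI16 had means of at most 0.0827 CPM, and DPT, TCF21 and LRRC15 had no counts. Endothelial markers (6 genes) summed to 24.0 to 34.1 CPM in siControl and 16.0 to 17.4 CPM in siDAB2IP, and leukocyte markers (6 genes) to 35.9 to 70.1 and 49.7 to 77.3 CPM, nearly all of it from CD14. In RNA from a whole culture, fewer cells of a type and less RNA per cell cannot be told apart.

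Across the 10 genes the siDAB2IP libraries were separated from siControl in 2, GAS1 below and SPARC above, and the values of the other 8 overlapped between the groups. Of all 15430 genes tested, 18.3% lay below and 17.6% above siControl in every siDAB2IP library, and nothing is read from the counts of the 10 because they were chosen from this comparison. 9 of the 10 genes passed the filter on low counts, and LUM did not. Among the 9, the log2 fold change was negative in 6 and positive in 3, with a median of -0.28 beside 0.01 for all genes tested. The genes therefore had no single direction. The values of each library are given below in the order of the replicate numbers 1, 2 and 3.

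**Figure D1:**
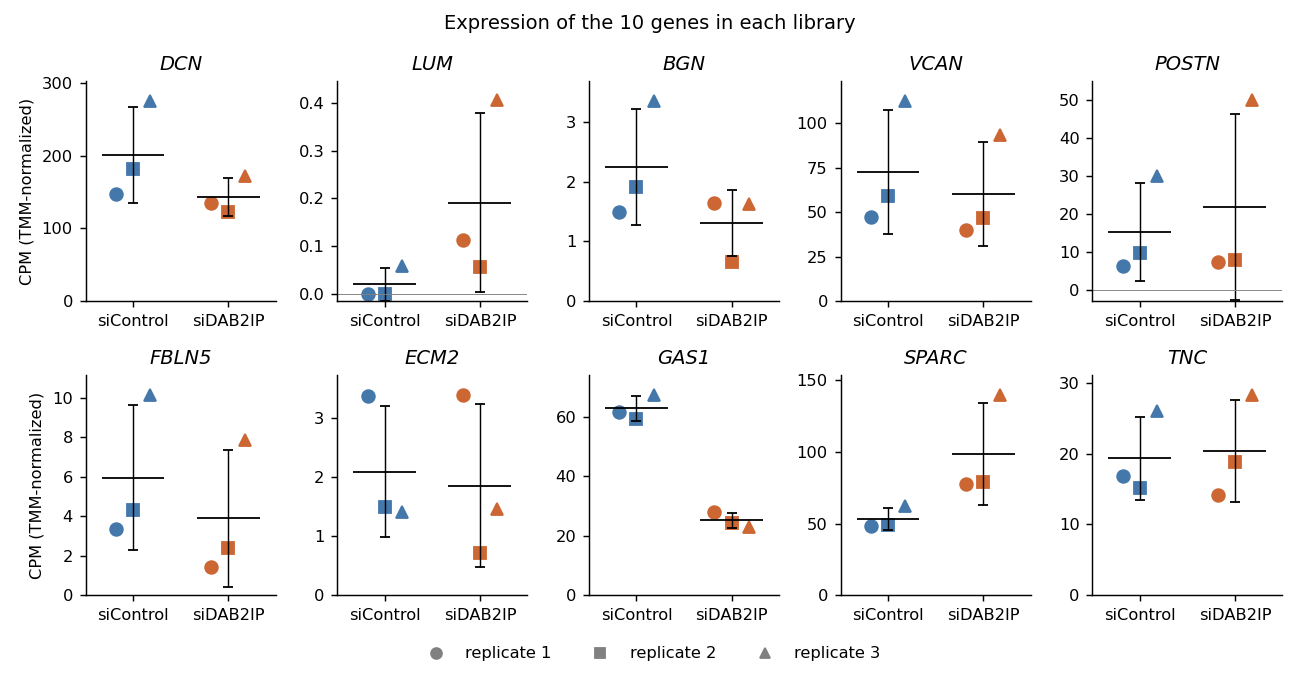
Expression of the 10 genes in each of the 6 libraries, in CPM on an axis of its own for each gene. Axes start at 0 except in POSTN and LUM, where the mean minus the SD of a group is below 0. Points are libraries, with marker shapes for the replicate numbers 1 to 3. Horizontal bars are group means, and error bars are ± 1 SD. The siDAB2IP points of GAS1 all lie below, and those of SPARC all above, the siControl points, and in VCAN, POSTN and FBLN5 the highest point of both groups is replicate 3.

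DCN encodes decorin, a small leucine-rich proteoglycan that decorates collagen fibrils and binds TGF-β. It lies on the minus strand at chr12:91140484-91183123 (GRCh38, as are all positions of genes). DCN had 148, 182 and 275 CPM in the siControl libraries and 136, 122 and 172 CPM in the siDAB2IP libraries, the highest level in CPM among the 10 genes. Within each replicate number siDAB2IP was lower, at 0.918, 0.674 and 0.627 of siControl, but the siDAB2IP library of replicate 3 stood above the siControl library of replicate 1. The fitted log2 fold change was -0.49 ± 0.21 (SE), and -0.46 ± 0.12 with the replicate number as a block.

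LUM, which encodes lumican, a collagen-binding keratan sulfate proteoglycan, is the neighbor of DCN at chr12:91102629-91111831. It had 0, 0 and 1 counts in siControl and 2, 1 and 7 counts in siDAB2IP. Only 1 library, siDAB2IP replicate 3, exceeded the limit that a count of 0 allows, so LUM was at the edge of detection in these cells and no fold change is given. KERA and EPYC, the other leucine-rich proteoglycan genes of that cluster, had no counts in any library. DCN was thus expressed while LUM was at the edge of detection and KERA and EPYC had no counts.

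BGN encodes biglycan, the closest relative of decorin, at chrX:153494939-153509554 on the plus strand. BGN had 1.5, 1.90 and 3.35 CPM in siControl and 1.64, 0.665 and 1.62 CPM in siDAB2IP, which rests on 24, 41 and 57 counts and on 29, 12 and 28 counts. The groups overlapped. Replicate 1 did not share the lower siDAB2IP value of the other two, since the ratio of siDAB2IP to siControl was 1.09, 0.349 and 0.485, and the log2 fold change of -0.78 ± 0.42 was less than 2 times its error.

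ECM2 encodes an extracellular matrix protein with leucine-rich repeats related to decorin, at chr9:92493554-92536655 on the minus strand, and had 3.36, 1.49 and 1.41 CPM in siControl and 3.38, 0.720 and 1.45 CPM in siDAB2IP. Replicate 1 was the highest library of both groups, in contrast to most of the other genes. Its log2 fold change was -0.16 ± 0.53, and it ranged from -0.93 without siDAB2IP replicate 1 to 0.33 without siControl replicate 1. The leucine-rich proteoglycan genes next to ECM2, ASPN, OGN and OMD, had at most 0.557 CPM, and ASPN and OGN had 1 count each in all 6 libraries together. CENPP overlaps ECM2 on the other strand, with no exon bases in common and a mean of 4.77 CPM.

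VCAN encodes versican, the hyaluronan-binding proteoglycan of provisional and tumor matrix, on the plus strand at chr5:83471465-83582303. VCAN had 47.2, 58.9 and 112 CPM in siControl and 39.9, 46.7 and 93.5 CPM in siDAB2IP. The spread within each group far exceeded the gap between them, and replicate 3 was highest in both. Within a replicate number the ratio of siDAB2IP to siControl was nearly constant, at 0.845, 0.792 and 0.831. The log2 fold change was accordingly -0.28 ± 0.35 without the replicate number and -0.28 ± 0.08 in the blocked fit, and without siControl replicate 3 the value of the fit without the block turned to 0.16. The antisense gene VCAN-AS1, which shares 453 exon bases with VCAN, had no counts.

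SPARC encodes osteonectin, a collagen-binding matricellular protein, on the minus strand at chr5:151661096-151687165. SPARC had 48.5, 48.9 and 62.1 CPM in siControl and 77.7, 78.8 and 140 CPM in siDAB2IP. All siDAB2IP libraries were above all siControl libraries, by 1.60, 1.61 and 2.26 times within the replicate numbers. Its log2 fold change was 0.89 ± 0.22, and 0.56 without siDAB2IP replicate 3, the library with the highest level. CLMAT3, an antisense gene that shares 381 exon bases with SPARC, had a mean of 0.0186 CPM.

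TNC encodes tenascin-C, a hexameric glycoprotein that weakens cell adhesion, on the minus strand at chr9:115019578-115118257. TNC had 16.9, 15.2 and 26.1 CPM in siControl and 14.1, 18.8 and 28.4 CPM in siDAB2IP. The siDAB2IP library was lower in replicate 1 and higher in replicates 2 and 3, and the log2 fold change was 0.08 ± 0.27. It turned to -0.23 without siDAB2IP replicate 3. The gap between the groups was smaller than the spread of the libraries. DEC1, which shares 129 exon bases with TNC on the other strand, had no counts.

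POSTN encodes periostin, a matricellular protein that binds integrins and cross-links collagen, on the minus strand at chr13:37562583-37598844. POSTN had 6.36, 9.80 and 30.1 CPM in siControl and 7.45, 7.98 and 50.1 CPM in siDAB2IP. Both replicate 3 libraries stood far above the other 4, so the groups overlapped fully. The log2 fold change of 0.50 ± 0.73 was set by these libraries, since it was -0.99 without siDAB2IP replicate 3 and 1.42 without siControl replicate 3, and it was 0.26 ± 0.19 in the blocked fit.

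FBLN5 encodes fibulin-5, which links elastin to microfibrils and to integrins, on the minus strand at chr14:91869412-91947987. FBLN5 had 3.36, 4.32 and 10.2 CPM in siControl and 1.41, 2.38 and 7.89 CPM in siDAB2IP. Within each replicate number siDAB2IP was lower, at 0.419, 0.552 and 0.776 of siControl, while the siDAB2IP library of replicate 3 was above the siControl libraries of replicates 1 and 2. The log2 fold change was -0.61 ± 0.58, or -0.75 ± 0.22 in the blocked fit, and it ranged from -1.64 without siDAB2IP replicate 3 to -0.0014 without siControl replicate 3.

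GAS1 encodes a GPI-anchored surface protein that was found as a gene of growth-arrested cells and acts as a co-receptor for hedgehog ligands. It is on the minus strand at chr9:86944363-86947189. GAS1 had 61.7, 59.4 and 67.4 CPM in siControl and 28.1, 24.4 and 23.0 CPM in siDAB2IP. The highest siDAB2IP value was below the lowest siControl value, at ratios of 0.455, 0.410 and 0.342. The log2 fold change was -1.32 ± 0.11, in both fits, and lay between -1.41 and -1.26 when any library was left out. GAS1 also had the smallest spread within groups of the 10 genes on the log2 CPM scale (SD 0.123), and its means were 62.8 ± 4.11 and 25.2 ± 2.63 CPM (SD, n = 3).

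**Figure D2:**
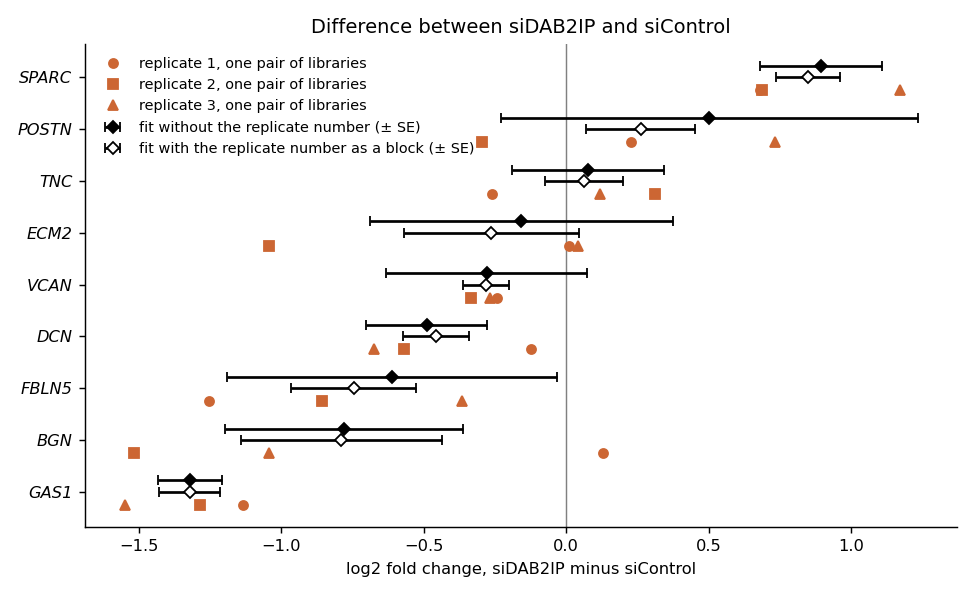
Log2 fold change of siDAB2IP against siControl for the 9 genes that passed the filter on low counts. Filled diamonds are the fit without the replicate number and open diamonds the fit with it as a block, bars are ± 1 SE, and orange symbols are the differences within each replicate number. GAS1 lies at -1.32 and SPARC at 0.89, and the error of VCAN narrows from 0.35 to 0.08 with the block.

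In the fit without the replicate number, GAS1 and SPARC were among the 14.2% of genes called (edgeR, adjusted p under 0.05), and with the replicate number as a block DCN, VCAN, FBLN5, GAS1 and SPARC were among the 21% called. Both counts come from the comparison that chose the genes and are not evidence about them.

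The replicate number held the larger share of variation in most of the genes. They were chosen from values of these same libraries. Their comparisons with all genes tested, here and for replicate 3 below, are therefore a description. The labels give both groups the numbers 1 to 3 without saying what a number stands for. The share of a gene's variation in log2 CPM that lay between replicate numbers was largest for POSTN (95.5%), VCAN (93.3%), TNC (89.7%), ECM2 (86.1%) and FBLN5 (78.9%). It was 53.6% for DCN, 39.5% for BGN and 29% for SPARC, and it was 0.633% for GAS1, where 97.7% lay between siControl and siDAB2IP. Of the 9 genes, 7 had a larger share for the replicate number than for the group, as did 49.5% of all genes tested. The median share of the replicate number was 78.9% in the 9 and 31.9% in all genes tested. The shares are not divided by degrees of freedom, of which the replicate number has more than the group, so this count favors it. The share of the group was 36.4% in DCN and 35.2% in BGN, nearest to that of the replicate number among the 7.

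A term for any difference among the 3 replicate numbers, tested in edgeR in the blocked fit and added once the data had been looked at, was called in 27 of 15430 genes (0.175%), and VCAN, POSTN and FBLN5 were 3 of these 27. All 3 were highest in replicate 3. For VCAN the log2 difference of replicate 3 from the mean of replicates 1 and 2 was 1.1 (adjusted p of the term = 0.00842, edgeR), and the ratio was 2.12 in siControl and 2.16 in siDAB2IP. For POSTN the log2 difference was 2.32 (adjusted p = 0.00892, edgeR), with ratios of 3.73 and 6.50. For FBLN5 it was 1.73 (adjusted p = 0.0472, edgeR), with ratios of 2.64 and 4.16. The direction was the same in both transfections, which is no separate result, because the term fits a difference shared by both groups. All 3 calls rested on few libraries. They were lost without siDAB2IP replicate 1 (adjusted p = 0.0805, 0.0805 and 0.214 in the order VCAN, POSTN, FBLN5, edgeR) and without siDAB2IP replicate 2 (0.115, 0.0874 and 0.247), and FBLN5 was also lost without siControl replicate 1 or 2. Without siDAB2IP replicate 1 or 2, 0 genes of the whole table were called, and 1 residual degree of freedom remained. There 7 members had an unadjusted p under 0.05 in edgeR, as did 1093 and 1009 of all genes. The log2 differences ranged from 1.08 to 1.15 in VCAN, 1.91 to 2.73 in POSTN and 1.42 to 2.11 in FBLN5 when single libraries were left out. Limma on log2(FPKM + 1) covered the 12412 genes with a mean of at least 1 FPKM, which left out FBLN5, BGN, ECM2 and LUM. No gene was called there, with 1591 genes and 5 of the remaining members at an unadjusted p under 0.05. FBLN5 was therefore not tested in that fit.

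The other 6 tested genes were not called for the replicate number. DCN (0.58), BGN (0.76), SPARC (0.61) and TNC (0.75) also had positive log2 differences of replicate 3, with adjusted p-values of edgeR of 0.176, 0.494, 0.150 and 0.145. ECM2 had -0.43 (adjusted p = 0.181, edgeR) and GAS1 had -0.0027 (adjusted p = 0.825, edgeR). In 6 of the 9 genes replicate 3 was the highest library of both groups, beside 16.9% of all genes tested, and the median log2 difference was 0.75 in the 9 and -0.01 in all. A difference above 1 was found in 3 of the 9 genes and in 0.985% of all genes tested.

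Of the 27 genes called for the replicate number, 6 were higher and 21 lower in replicate 3 than in the mean of the others. Beside VCAN, POSTN and FBLN5, the genes higher in replicate 3 were FN1 (fibronectin), COL12A1 (a fibril-associated collagen) and PAPPA (a protease of IGF-binding proteins), and FN1 had 523, 608 and 1405 CPM in siControl and 672, 816 and 2150 CPM in siDAB2IP. Those lower in replicate 3 included the epithelial keratin gene KRT15 (log2 difference -1.31), the epithelial transcription factor gene ELF3 (-1.31) and PHGDH (-2.17), the first enzyme of serine synthesis. These 6 genes were named after their values were seen. Of the markers of fibroblasts and pericytes, 0 were called for the replicate number in edgeR and 1 had an unadjusted p under 0.05, and FAP had a log2 difference of 0.63 in replicate 3 (adjusted p = 0.108, edgeR). Among all 15430 genes tested, 2022 had an unadjusted p under 0.05 for the replicate number in edgeR. Of the 12 epithelial markers, 0 were called in edgeR and 3 had an unadjusted p under 0.05. Their median log2 difference in replicate 3 was -0.19, from -0.71 in EPCAM to 0.31 in KRT17. The part of other cell types in the difference was not tested.

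**Figure D3:**
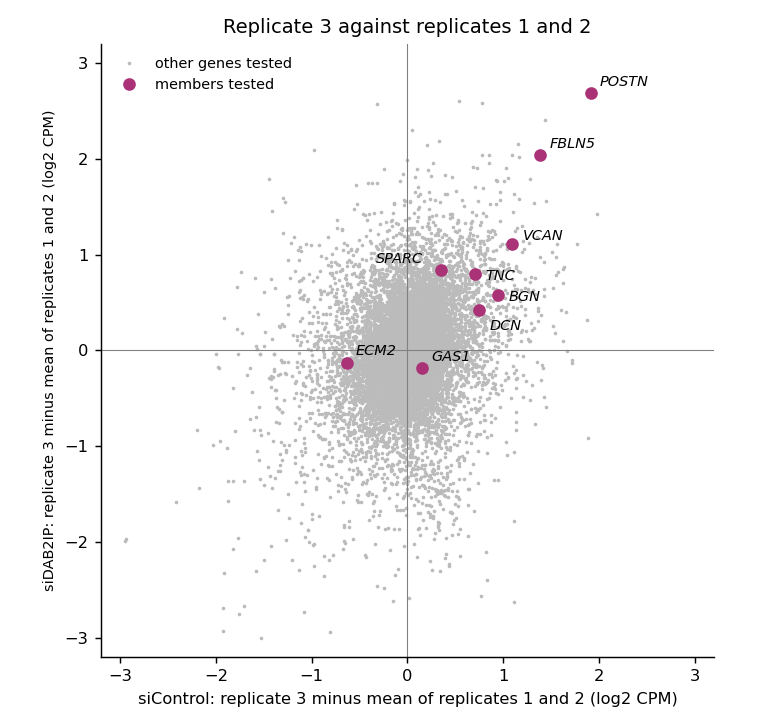
Log2 difference of replicate 3 from the mean of replicates 1 and 2, in siControl (horizontal axis) and in siDAB2IP (vertical axis), for the 15430 genes tested (gray) and the 9 tested genes of the matrix set (labeled). VCAN, POSTN and FBLN5 lie in the upper right, far from the center of the cloud, and GAS1 lies near 0.

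The levels of the 10 genes were compared with each other per gene length, in FPKM as deposited. In siControl the order was GAS1 (22 ± 1.40), DCN (15.5 ± 5.07), SPARC (10.9 ± 1.57), VCAN (4.87 ± 2.32), POSTN (2.80 ± 2.33), TNC (1.99 ± 0.603), FBLN5 (1.18 ± 0.731), BGN (0.908 ± 0.392), ECM2 (0.420 ± 0.222) and LUM (0.00644). Most neighbors in this order had overlapping libraries. SPARC was above VCAN and ECM2 above LUM in every siControl library. In siDAB2IP, SPARC had the highest level at 20.2 ± 7.27 FPKM, followed by DCN at 11 ± 1.98 and GAS1 at 8.80 ± 0.935, and LUM was again lowest at 0.0629. Among the genes tested, GAS1 stood at the 88.3rd percentile of siControl FPKM, DCN at the 82.7th, SPARC at the 75.3rd and VCAN at the 54.8th, and ECM2 stood at the 10.8th.

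The order at the top depended on the length used for DCN. The gene length behind its FPKM was 12847 bases, from all its annotated exons, and its longest coding transcript has 7156 bases. Per kilobase of the longest coding transcript, DCN came first with 28.1 CPM per kb, GAS1 second with 22.2, and the other 8 genes kept their places. Among the 10 genes, GAS1, DCN and SPARC thus had the highest levels by either length.

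**Figure D4:**
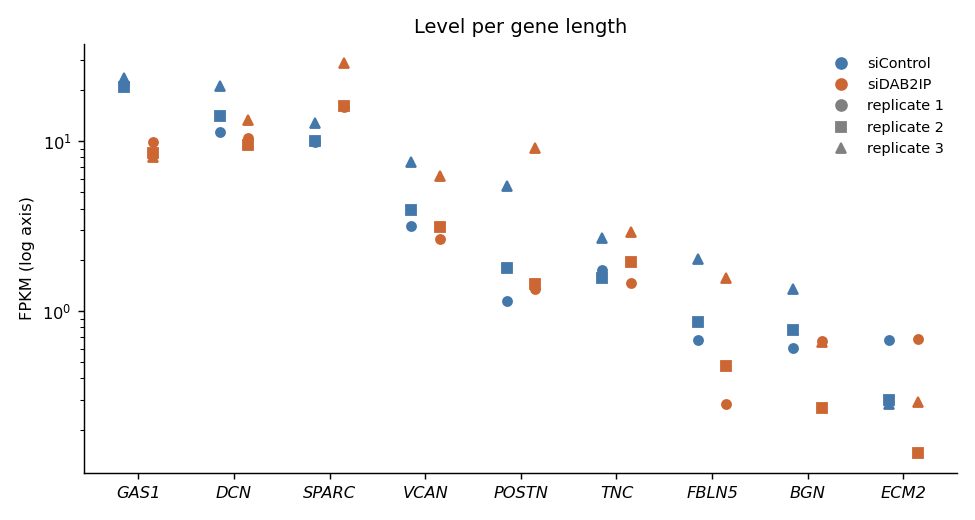
FPKM of 9 of the 10 genes in each siControl and siDAB2IP library on a log axis, ordered by the siControl mean. Points are libraries. GAS1, DCN and SPARC are highest at siControl means of 22, 15.5 and 10.9 FPKM. LUM, which was at or near 0 FPKM, is not drawn.

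Promoter sequences were read for the genes that stood out, POSTN and FBLN5 for the replicate number and GAS1 for the separation of the groups, to show how different their start sites are. RefSeq start sites (GRCh38.p14) with 250 bases upstream were at hand for 8 of the 10 genes, in 9 windows because FBLN5 has 2. Only upstream bases outside annotated exons are printed, from 5′ to 3′ on the minus strand of chr13:37598845-37599018, chr14:91947075-91947212 and chr9:86947507-86947756, with motif matches in capitals (none in FBLN5 and GAS1).
POSTN: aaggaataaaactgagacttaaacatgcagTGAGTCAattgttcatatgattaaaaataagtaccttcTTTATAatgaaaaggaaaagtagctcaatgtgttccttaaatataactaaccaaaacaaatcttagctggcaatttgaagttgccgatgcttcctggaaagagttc
FBLN5: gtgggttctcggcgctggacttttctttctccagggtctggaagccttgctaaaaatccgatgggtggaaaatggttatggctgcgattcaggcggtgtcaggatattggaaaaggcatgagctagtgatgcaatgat
GAS1: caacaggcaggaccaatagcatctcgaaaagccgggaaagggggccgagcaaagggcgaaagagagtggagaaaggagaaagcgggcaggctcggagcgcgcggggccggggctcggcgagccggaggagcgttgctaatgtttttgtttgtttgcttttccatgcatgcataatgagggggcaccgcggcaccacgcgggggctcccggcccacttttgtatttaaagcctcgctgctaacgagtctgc

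The POSTN window was poor in G and C (36.4%, beside a median of 58% in all 35116 windows). Its capitals mark TGAGTCA, a match to the AP-1 motif TGANTCA, which 6.57% of all windows hold, and TTTATA, the reverse complement of the TATA motif TATAAA, which 10.7% hold. The GAS1 window had 60% G and C and no match to these motifs, nor to the TEAD motif GGAATG (11.9% of windows), the CArG box (1.16%) or the kappaB site (5.21%). Each motif was searched on both strands. In the full 250 bases upstream, TATAAA was matched in POSTN and FBLN5 and GGAATG in ECM2 and SPARC. BGN, VCAN and TNC had no match to any of the motifs. A match says only that the letters are present in the window.

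Other genes of the matrix were examined in 6 lists, and here the difference between siDAB2IP and siControl was tested with edgeR on all 15430 genes, of which 6.55% rose and 7.65% fell. The lists were set with earlier results of these data known, and the other genes of the table give the background. With the replicate number as a block, 9.59% rose and 11.4% fell. In the lists of other proteoglycans and of chain synthesis, the block added 1 call each, GPC2 higher (adjusted p = 0.0239, edgeR) and DSEL lower (adjusted p = 0.0114, edgeR).

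Of the 14 other small leucine-rich proteoglycans and relatives, 4 were tested, 0 rose and 0 fell with edgeR or DESeq2, and 0 had an unadjusted p under 0.05 in either direction. TSKU (tsukushi) was the only one of this list with a sizable level, at 180, 180 and 149 CPM in siControl and 174, 162 and 142 CPM in siDAB2IP, a log2 fold change of -0.09 ± 0.12 (adjusted p = 0.666, edgeR). CHAD (chondroadherin) had 3.48 to 6.54 CPM in siControl and 3.38 to 5.36 CPM in siDAB2IP. In 11 of the 14, every library was under 1 CPM.

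Of 29 other proteoglycans and link proteins, 21 were tested, 6 rose and 3 fell, with a median log2 fold change of 0.22. TGFBR3 (betaglycan, a TGF-β co-receptor) fell from 75.3, 81.9 and 91.6 CPM to 35.8, 39.2 and 40.9 CPM, a log2 fold change of -1.10 ± 0.11 (adjusted p = 0.000449, edgeR). HAPLN3, a link protein that ties hyaluronan to proteoglycans such as versican, fell from 27.5, 21.8 and 21.5 CPM to 11.1, 6.81 and 10.6 CPM (-1.31 ± 0.20, adjusted p = 0.0035, edgeR). The groups of both genes were well apart. SRGN (serglycin, a proteoglycan of secretory granules) rose by 0.79 ± 0.22 (adjusted p = 0.0425, edgeR) and BCAN (brevican, of the versican family) by 0.72 ± 0.21 (adjusted p = 0.0488, edgeR). BCAN lost its call whichever library was left out, and SRGN without siControl replicate 1 or 2 or siDAB2IP replicate 1 or 3. The basement membrane genes AGRN and HSPG2, GPC1 and SDC3 also rose and GPC6 fell. Leaving out siControl replicate 2 brought the 6 that rose to 0, leaving out siControl replicate 1 to 2, and leaving out siControl replicate 3 or siDAB2IP replicate 1 to 3.

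Of 22 other matricellular genes, 11 were tested, 1 rose and 0 fell, with a median of 0.46. The single gene was WISP2 (CCN5), at 9.72, 8.77 and 6.52 CPM in siControl and 12.9, 13.5 and 23.0 CPM in siDAB2IP (0.98 ± 0.25, adjusted p = 0.0276, edgeR), and its call was lost whichever siControl library was left out. At an unadjusted p under 0.05, 4 were higher and 1 was lower. The share of all genes tested at that threshold is not given here, so nothing is read from these counts. With the replicate number as a block 5 rose, THBS1, SMOC1, FSTL1 and CYR61 beside WISP2. The log2 fold change of THBS1 was 0.53 ± 0.21 in the fit without the block. The matricellular members SPARC, POSTN and TNC were kept out of these counts because they were chosen from the comparison.

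Of 30 other fibulins, elastic fiber and matrix glycoprotein genes, 16 were tested, 1 rose and 2 fell, with a median of 0.07. LTBP3, which holds latent TGF-β in the matrix, rose from 280, 255 and 194 CPM to 445, 458 and 326 CPM (0.75 ± 0.17, adjusted p = 0.0168, edgeR), and its relative LTBP4 fell from 314, 266 and 304 CPM to 227, 179 and 197 CPM (-0.55 ± 0.12, adjusted p = 0.0154, edgeR). MATN2 (matrilin-2) fell by 1.09 on the log2 scale (adjusted p = 0.0433, edgeR). The call of LTBP3 was lost without siControl replicate 2 or 3, that of LTBP4 without siControl replicate 1, and that of MATN2 whichever library other than siDAB2IP replicate 2 was left out. With the replicate number as a block 3 rose, LTBP3, FN1 and FBN1.

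Of 38 genes of glycosaminoglycan chain synthesis, which cover the chondroitin and dermatan sulfate chains of decorin, biglycan and versican and also heparan sulfate and hyaluronan, 35 were tested, 5 rose and 5 fell, with a median of 0.08. UST, which sulfates uronic acids of chondroitin and dermatan sulfate, fell from 29.5, 39.2 and 39.3 CPM to 14.9, 15 and 8.06 CPM (-1.51 ± 0.22, adjusted p = 0.00344, edgeR). UGDH, which makes the UDP-glucuronic acid used in all these chains except keratan sulfate, fell by 1.25 on the log2 scale (adjusted p = 0.00946, edgeR), HS6ST1 (heparan sulfate 6-O-sulfation) by 0.97 (adjusted p = 0.00407, edgeR) and CSGALNACT1 (the start of chondroitin chains) by 0.85 (adjusted p = 0.00308, edgeR). EXT1 also fell, and CHPF, CHPF2, B3GAT3, EXTL3 and HAS3 rose, so the list moved in both directions. Leaving out siControl replicate 2 brought the 5 that rose to 1, leaving out siControl replicate 1 to 2, and leaving out siControl replicate 3 or siDAB2IP replicate 2 to 3.

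Of 15 hedgehog receptor and target genes, the pathway in which GAS1 acts at the cell surface, 9 were tested, 0 rose and 2 fell with edgeR and also with DESeq2, with 0 higher at an unadjusted p under 0.05 and a median of -0.12. GLI3 (a transcription factor that mainly represses targets) fell from 48.7, 45.7 and 59.8 CPM to 31.3, 32.7 and 38.3 CPM (-0.59 ± 0.13, adjusted p = 0.0168, edgeR), and GPR161 (a receptor that restrains the pathway) by 0.68 on the log2 scale (adjusted p = 0.045, edgeR). The call of GLI3 was lost without siControl replicate 3 or siDAB2IP replicate 1, and that of GPR161 without siDAB2IP replicate 1 or any siControl library. For CDON, another hedgehog co-receptor, the log2 fold change was -0.19 ± 0.15 (adjusted p = 0.437, edgeR), and the pathway target PTCH1 had 0.30 ± 0.16 (adjusted p = 0.24, edgeR). SMO, the signal transducer, had at most 0.0587 CPM in any library.

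**Figure D5:**
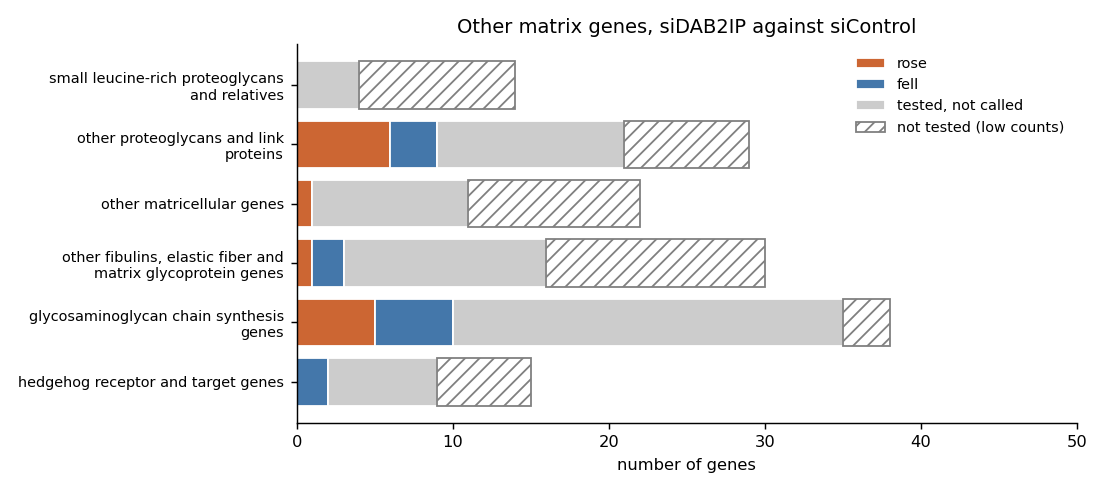
Number of genes that rose, fell, were tested and not called, or were not tested in each of the 6 lists of other matrix and hedgehog genes, siDAB2IP against siControl (edgeR, adjusted p under 0.05). The counts range from 0 of 4 tested small leucine-rich proteoglycans and relatives to 10 of 35 tested glycosaminoglycan chain synthesis genes.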

How the data were processed

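RNA-Seq was performed on 6 libraries of MCF10A cells, 3 siControl and 3 siDAB2IP. The authors deposited raw counts for every gene, as whole numbers. The authors also deposited FPKM, counts scaled by gene length and library total. The submitters' processing notes name STAR 2.6.1d, featureCounts 1.5.0-p3, DESeq2 1.20.0, edgeR 3.24.3 and hg38, without roles. Whether counting used strand is not given in the sources used here, so values of overlapping genes are uncertain. All 58735 genes matched GENCODE 29 in position.

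Counts (16353783 to 21916062 per library) were fitted with edgeR 4.0.16 under R 4.3.3 (TMM, filterByExpr, glmQLFit, glmQLFTest, group only), with Benjamini-Hochberg adjustment over the 15430 genes tested and a threshold of 0.05. Standard errors were derived from the F statistic. The share of variation is the sum of squares of group, replicate number and residual in log2 CPM (prior count 2). The members and the lists were chosen with earlier results of these data known. Named genes are the 10 members, DAB2IP, the cluster neighbors, and from each list up to 4 called genes with the largest change, separated groups and a mean of 1 CPM or more (14 in all). Others named in the text were called genes or lost calls, chosen after their values were seen.

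Deviations of log2 CPM from the group means correlated at 0.26, 0.15 and 0.25 between same-numbered libraries and at -0.28 to 0.02 between others, and the numbers were treated as pairs on this basis. Deviations within a group cancel out, so positive values between same-numbered libraries bring negative ones between others. The gap between them is therefore partly fixed in advance. Library names also share a first letter within a number, whose meaning the labels do not give. The test of the replicate number was an addition made once the data were known. Promoter windows are from RefSeq (GRCh38.p14).

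Alternatives were DESeq2 1.42.0, its size factors in edgeR, scaling by library size, the unfiltered table, a minimum of 10 counts per library, the replicate block, limma 3.58.1 on log2(FPKM + 1) and log2(FPKM + 0.1) with a mean of at least 1 FPKM, limma without that filter, and leaving out each library. Scripts were tested on simulated counts with 200 changed genes.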

Additional observations from a re-analysis of the deposited data

How the results depend on the processing

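Under every alternative run, GAS1 stayed negative and SPARC positive, and 128 values of the 9 tested genes moved by less than the spread between replicates, with 1 exception (POSTN without siDAB2IP replicate 3, -0.99). The median of the 9 ranged from -0.75 to -0.0014 when single libraries were left out. With the replicate number as a block, which pairs the libraries, 5 other matricellular genes and 3 other fibulin and elastic fiber genes rose instead of 1 each, and the block kept the calls of all 14 named genes. Of these 14, 9 kept their call and 3 lost it with either filtered limma fit, 2 kept it and 12 lost it with limma without a filter, 1 (BCAN) lost it with at least 10 counts in every library, and 8 to 13 kept it when single libraries were left out. Of all genes, 659 rose and 758 fell with limma on log2(FPKM + 0.1), 176 and 202 with limma on log2(FPKM + 1) without a filter, and 264 to 1172 and 459 to 1352 when single libraries were left out, lowest without siControl replicate 2. In the lists, limma on log2(FPKM + 1) and on log2(FPKM + 0.1) gave the same counts: 3 other proteoglycans and 0 other matricellular genes rose, and 1 fibulin list gene and 1 hedgehog gene fell. Limma without a filter gave 1 proteoglycan higher and 1 lower, 0 matricellular genes higher, 0 fibulin list genes in either direction, 2 chain synthesis genes higher and 1 lower, and 0 hedgehog genes lower. In unfiltered edgeR 7 matricellular and 3 fibulin list genes rose, beside 1245 genes in the whole table. With DESeq2 2 matricellular genes rose, beside 1098 genes in the whole table. Leaving out single libraries gave 0 to 5 proteoglycans, 0 to 2 matricellular, 0 to 2 fibulin list, 1 to 7 chain synthesis and 0 to 1 hedgehog genes that rose, and 0 to 2 fibulin list and 0 to 2 hedgehog genes that fell. The replicate number was called in 1046 genes and 7 of the 9 in unfiltered edgeR, in 232 and 6 with DESeq2, in 0 and 0 with limma, and in 0 to 3555 genes and 0 to 7 of the 9 when single libraries were left out, where 1 residual degree of freedom remains. The limma fit did not hold FBLN5, BGN or ECM2, whose means were under 1 FPKM. The number called was 3555 genes without siControl replicate 3, 1279 without siDAB2IP replicate 3, and 0 without siDAB2IP replicate 1 or 2, where 1093 and 1009 genes had an unadjusted p under 0.05. The cause of these shifts was not tested. FBLN5 missed the threshold with at least 10 counts in every library (adjusted p = 0.0549, edgeR). Depth limits LUM, BGN and ECM2 most.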
